A study of Mus musculus with 4 samples.

Results

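The 4 autosomal Zic genes were followed in neural precursor cells with and without *Zfp57*. They form 2 adjacent pairs, *Zic1*-*Zic4* on chromosome 9 and *Zic2*-*Zic5* on chromosome 14, and are 4 of the 55602 genes in the deposited count tables. They were chosen by their bulk counts, because *Zic1* was among the genes with the strongest decrease in the *Zfp57*-/- cells. Their own differences between genotypes are therefore given as a description, without a test.

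ZIC proteins are zinc finger transcription factors related to the GLI factors. *Zic1* and *Zic4* are known for their part in cerebellar development, *Zic2* and *Zic5* for neural tube closure and forebrain and neural crest development. In the embryo, Zic genes are expressed in the dorsal neural tube, and *Zic2* also in the epiblast before neural tissue forms.

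Total RNA came from JB1 embryonic stem cells (ESCs), a male line from a JF1 mother and a C57BL/6 (B6) father, and from a *Zfp57*-/- line derived from it. ZFP57 is a zinc finger protein that maintains DNA methylation at imprinting control regions. Both genotypes were differentiated in the same way, with 1 µM cyclopamine, a Hedgehog pathway inhibitor, from day 2 to day 10, and harvested at day 12, with 2 cultures per genotype. A single mutant line was used, so that the loss of *Zfp57* and other differences between the lines cannot be told apart.

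The 4 libraries held between 7663520 and 10337082 gene counts, of which between 2837013 and 3826604 could be assigned to a parental allele. The wild-type libraries had 392 and 249 counts of *Zfp57*, against 158 and 144 in *Zfp57*-/- cells (log2 fold change -1.18, edgeR adjusted p = 0.0224), so that its RNA was reduced but not absent. Which part of *Zfp57* was deleted is not given in the sources used here. Of the 7 pluripotent cell markers, 7 were higher in *Zfp57*-/- cells, and *Nanog* was at 0 in both wild-type libraries. Their summed level was between 4.21 and 7.92 counts per 1000000 counts of the library (CPM) in wild-type and between 1084 and 1240 CPM in *Zfp57*-/- cells. Of the 6 neuron markers, 5 were lower, with summed levels between 1458 and 1841 CPM in wild-type and between 160.2 and 203.05 CPM in *Zfp57*-/- cells. Of the 8 neural progenitor markers, 6 were lower, with sums between 1610 and 1884 CPM and between 1120 and 1140 CPM. Of the 7 endoderm markers 1 was higher, and of the 5 endothelium markers 2 were higher and 1 was lower. Their summed levels were between 417 and 664 CPM (endoderm) and between 232 and 348 CPM (endothelium) in wild-type, and between 701 and 959 CPM and between 240.2 and 291 CPM in *Zfp57*-/- cells. All these marker calls used an edgeR adjusted p under 0.05, at which 14.6% of all genes tested were lower and 13% higher. In these bulk samples, fewer cells of a type and less RNA per cell cannot be told apart, and the part of cell composition in the values of the Zic genes was not tested.

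The genes of each pair lie head to head on opposite strands. *Zic1* (ENSMUSG00000032368.14) occupies chromosome 9 from 91358058 to 91365810 on the minus strand, and *Zic4* (ENSMUSG00000036972.14) from 91362413 to 91389348 on the plus strand (GRCm38). The spans of *Zic1* and *Zic4* overlap, but their exons share only 60 bases, and the counting used the strand. *Zic5* (ENSMUSG00000041703.7) occupies chromosome 14 from 122456795 to 122465677 on the minus strand, and *Zic2* (ENSMUSG00000061524.8) from 122475435 to 122479852 on the plus strand, with no exonic base in common.

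RefSeq promoter windows (GRCm38.p6) matched 3 of the 4 genes, *Zic1*, *Zic4* and *Zic5*. The bases upstream of the annotated exons are shown for *Zic1* (chr9:91365811-91366018) and *Zic5* (chr14:122465678-122465908), 5′ to 3′ on the strand of the gene. Capitals mark TGCCGC and GGCCGC, the forms of the hexamer that ZFP57 binds when it is methylated, searched on both strands.
Zic1: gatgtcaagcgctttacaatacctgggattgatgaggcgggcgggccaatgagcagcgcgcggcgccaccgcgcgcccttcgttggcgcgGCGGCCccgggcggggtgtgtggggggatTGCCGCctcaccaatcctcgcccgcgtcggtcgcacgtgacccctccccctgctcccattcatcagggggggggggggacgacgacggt
Zic5: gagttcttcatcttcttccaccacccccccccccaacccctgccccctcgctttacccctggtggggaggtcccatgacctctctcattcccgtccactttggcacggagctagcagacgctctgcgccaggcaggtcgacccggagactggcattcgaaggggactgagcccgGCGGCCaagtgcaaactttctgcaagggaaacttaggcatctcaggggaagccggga
TGCCGC occurred 1 time for *Zic1* and 0 times for *Zic5* and *Zic4*, and was present in 8.68% of all 32851 windows of 250 bases upstream of a RefSeq start. GGCCGC occurred 1 time each for *Zic1* and *Zic5*, on the other strand, and 0 times for *Zic4* (16.1% of all windows). Either form was present in 21.6% of all windows. The *Zic1* window held 27 CpG dinucleotides, more than 91.4% of all windows, against 11 for *Zic5* and 4 for *Zic4*, with a median of 6 over all windows. CCAAT occurred 2 times for *Zic1* and in neither of the others (33.8% of all windows). GGGTGG, part of the sequence recognised by GLI-type zinc fingers, occurred 1 time each for *Zic4* and *Zic5* and 0 times for *Zic1* (28.1% of all windows), and TATAAA in none of the 3 (12.4%). All motifs were searched on both strands. The *Zic4* window lies within exons of other *Zic4* transcripts and is not printed. These matches describe letters only, since neither binding nor methylation was measured here.

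*Zic1* was well expressed in wild-type cells and close to absent from the *Zfp57*-/- cells. The wild-type libraries held 1760 and 3100 counts of *Zic1*, or 218 and 296 CPM. The *Zfp57*-/- libraries held 20 and 14 counts, or 2.15 and 1.43 CPM. The means of 257 ± 55.1 and 1.79 ± 0.51 CPM (SD, n = 2) differed 144-fold. The log2 fold change of *Zfp57*-/- over wild-type cells was -7.01 (standard error 0.31), and 4 of the 19995 genes tested had a lower one.

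Its partner *Zic4* followed the same pattern. Its counts were 295 and 315 (36.5 and 30.1 CPM) in wild-type cells, against 1 and 0 (0.11 and 0 CPM) in *Zfp57*-/- cells. Against 3 counts per library, the level of *Zic4* was at least 106-fold lower in *Zfp57*-/- cells. Its fitted log2 fold change of -6.98 depends on the prior count of 2, and 6 genes had a lower one.

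*Zic2* and *Zic5* were lower in the *Zfp57*-/- cells but clearly detected. The counts of *Zic2* were 985 and 1172 (122 and 112 CPM) in wild-type cells, against 424 and 391 (45.5 and 39.9 CPM) in *Zfp57*-/- cells. Those of *Zic5* were 604 and 635 (74.7 and 60.6 CPM), against 169 and 191 (18.1 and 19.5 CPM). Both genes had lower values in both *Zfp57*-/- libraries than in either wild-type library. With 2 libraries per genotype, this is a description only. The mean level of *Zic2* in *Zfp57*-/- cells was 36.5% of wild-type (log2 fold change -1.45, standard error 0.19), and that of *Zic5* 27.8% (log2 fold change -1.83, standard error 0.21). By log2 fold change, 2401 genes were lower than *Zic2* and 1675 lower than *Zic5*. Over all genes tested, 14.6% passed an adjusted p of 0.05 with a lower and 13% with a higher level in *Zfp57*-/- cells. All 4 autosomal Zic genes passed the filter on low counts and had a lower level in *Zfp57*-/- cells, a direction that reflects how they were chosen.

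**Figure D1:**
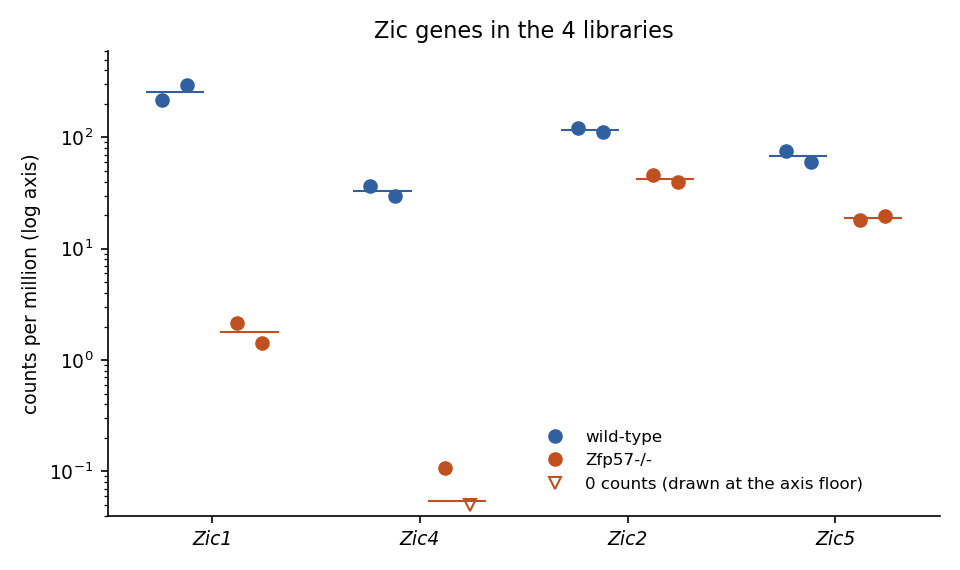
Normalised level of each Zic gene in CPM on a log axis, with a point per library, wild-type in blue and *Zfp57*-/- in orange, and a line at each group mean; the open triangle is the library with 0 counts of *Zic4*. *Zic1* and *Zic4* lay near or below 2 CPM in *Zfp57*-/- cells, and *Zic2* and *Zic5* between 18.1 and 45.5 CPM.

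Scaling by *Actb* shifted the median over all genes from -0.01 to -0.65. Relative to this median, *Zic1*, *Zic4*, *Zic2* and *Zic5* were at -6.95, -6.89, -1.50 and -1.92.

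Levels of different genes were compared per kilobase of exon. In wild-type cells, *Zic1* stood at 45.1 ± 9.68 and *Zic2* at 40.6 ± 2.47 CPM per kilobase (SD, n = 2), and the order of this pair of genes differed between the replicates. Per kilobase of coding sequence, *Zic1* was above *Zic2* in both replicates, at 162 and 221 against 76.8 and 70.5 CPM per kilobase. *Zic5* followed at 13.8 ± 2.05 CPM per kilobase, and *Zic4* was lowest at 3.22 ± 0.44 CPM per kilobase. The exon length of *Zic4*, 10335 bases, covers many alternative transcripts and lowers its level per kilobase. In *Zfp57*-/- cells, *Zic2* was highest at 14.8 ± 1.36 CPM per kilobase, followed by *Zic5* at 3.85 ± 0.20 and *Zic1* at 0.31 ± 0.09 CPM per kilobase.

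The make-up of this group of genes differed between the genotypes. This follows in part from the fall of *Zic1*, for which the group was chosen. A larger share of *Zic2* or *Zic5* does not mean a higher level, as both were lower in *Zfp57*-/- cells. The 4 genes summed to 99.4 and 106 CPM per kilobase in wild-type libraries and to 19.9 and 18.1 in *Zfp57*-/- libraries. *Zic1* made up 38.5% and 49.0% of this sum in wild-type and 1.89% and 1.39% in *Zfp57*-/- libraries. *Zic2* made up 42.6% and 36.6% in wild-type, against 79.4% and 76.6% in *Zfp57*-/- libraries. *Zic5* made up 15.4% and 11.7% in wild-type, against 18.6% and 22.0% in *Zfp57*-/- libraries. With coding lengths in place of exon lengths, *Zic1* made up 51.6% and 62.5% of the wild-type sums and *Zic2* 71.5% and 68.6% of the *Zfp57*-/- sums.

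**Figure D2:**
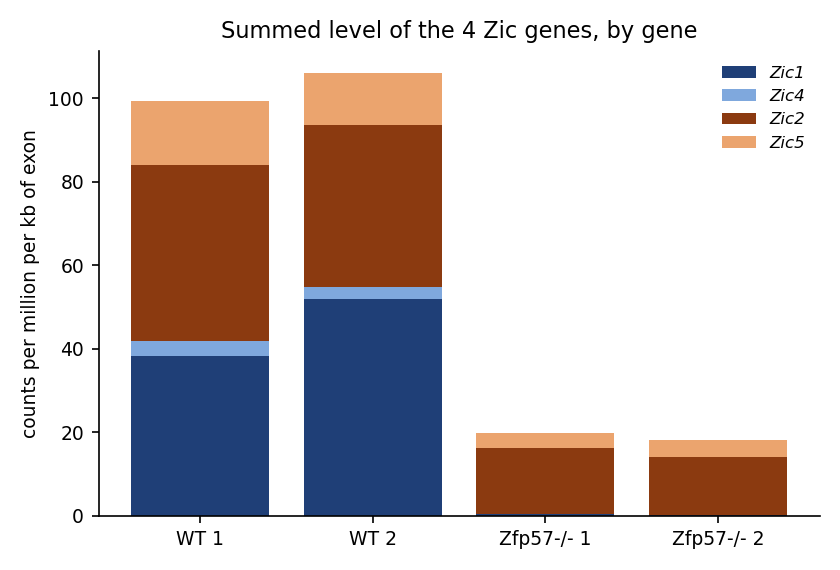
Summed level of the 4 autosomal Zic genes in each library, in CPM per kilobase of exon, split by gene. The wild-type bars reach 99.4 and 106 and consist mostly of *Zic1* and *Zic2*, while the *Zfp57*-/- bars reach 19.9 and 18.1 and consist mostly of *Zic2*.

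The hybrid cells allowed the maternal (JF1) and paternal (B6) alleles to be compared, a measure that was not used to choose the genes. All 4 genes were expressed from both alleles in wild-type cells, with somewhat fewer maternal than paternal reads. *Zic1* had 284 maternal and 315 paternal reads in wild-type replicate 1 and 471 and 541 in replicate 2. This gave maternal shares of 0.474 (Wilson 95% interval 0.434 to 0.514) and 0.465 (0.435 to 0.496). *Zic4* had 39 of 97 and 41 of 100 maternal reads, shares of 0.402 (0.310 to 0.502) and 0.410 (0.319 to 0.508).

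For *Zic2*, 160 of 341 and 193 of 415 reads were maternal in wild-type cells, shares of 0.469 (0.417 to 0.522) and 0.465 (0.418 to 0.513). For *Zic5*, 93 of 218 and 96 of 220 reads were maternal, shares of 0.427 (0.363 to 0.493) and 0.436 (0.372 to 0.502). The intervals of the replicates overlapped for each of the 4 genes, and every share was below 0.5. The wild-type medians were 0.517 over 603 genes of chromosome 9 and 0.514 over 338 genes of chromosome 14. Over the 15 nearest genes with enough reads, the wild-type medians were 0.539 around *Zic1*-*Zic4* and 0.487 around *Zic2*-*Zic5*.

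The log2 ratio of maternal to paternal reads in wild-type cells was -0.18 for *Zic1* (standard error 0.11, edgeR adjusted p = 0.274), -0.55 for *Zic4* (0.30, adjusted p = 0.202), -0.19 for *Zic2* (0.15, adjusted p = 0.416) and -0.40 for *Zic5* (0.19, adjusted p = 0.126). By edgeR's quasi-likelihood test, 0 of the 4 genes passed the adjusted threshold and 1, *Zic5*, had an unadjusted p under 0.05 (0.0372), while 23.6% of the 10977 genes tested passed. DESeq2 called 0 of the 4. With the ratios centred on the median of the chromosome, edgeR also called 0 of the 4. The edgeR adjusted p was then 0.0515 for *Zic1*, 0.112 for *Zic4*, 0.212 for *Zic2* and 0.0576 for *Zic5*. An exact binomial test on the pooled reads, which takes no account of the spread between replicates, called 3 of the 4, *Zic1*, *Zic4* and *Zic5* (adjusted p = 0.0402, 0.0332 and 0.0172). The direction was the same in 2 of 2 replicates for all 4 genes.

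In *Zfp57*-/- cells, the alleles could be compared for *Zic2* and *Zic5* only, since *Zic1* was left with 4 allelic reads in all and *Zic4* with 1. Both alleles of *Zic2* and *Zic5* were lower than in wild-type cells. Scaled to library size, the maternal and paternal reads of *Zic2* were at 34.3% and 36.6% of their wild-type level, and those of *Zic5* at 28.3% and 29.8%. The maternal share of *Zic5* was 0.431 (25 of 58 reads, 0.312 to 0.559) and 0.408 (31 of 76 reads, 0.304 to 0.520). That of *Zic2* differed between the *Zfp57*-/- replicates, at 0.354 (45 of 127 reads, 0.277 to 0.441) and 0.536 (81 of 151 reads, 0.457 to 0.614), with intervals that do not overlap.

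The genotype-by-allele contrast, the change of the maternal to paternal log2 ratio from wild-type to *Zfp57*-/- cells, was -0.09 for *Zic2* (standard error 0.25, edgeR adjusted p = 0.910) and -0.08 for *Zic5* (0.33, adjusted p = 0.952). edgeR called 0 of these 2 genes, with 0 at an unadjusted p under 0.05, and DESeq2 and Fisher's exact test on pooled reads also called 0. Of all genes tested, 14.5% passed. With standard errors of this size, a moderate change of the allelic ratio was not detectable at this depth. For *Zic2* the value rested on the *Zfp57*-/- libraries, being 0.40 without replicate 1 and -0.67 without replicate 2.

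**Figure D3:**
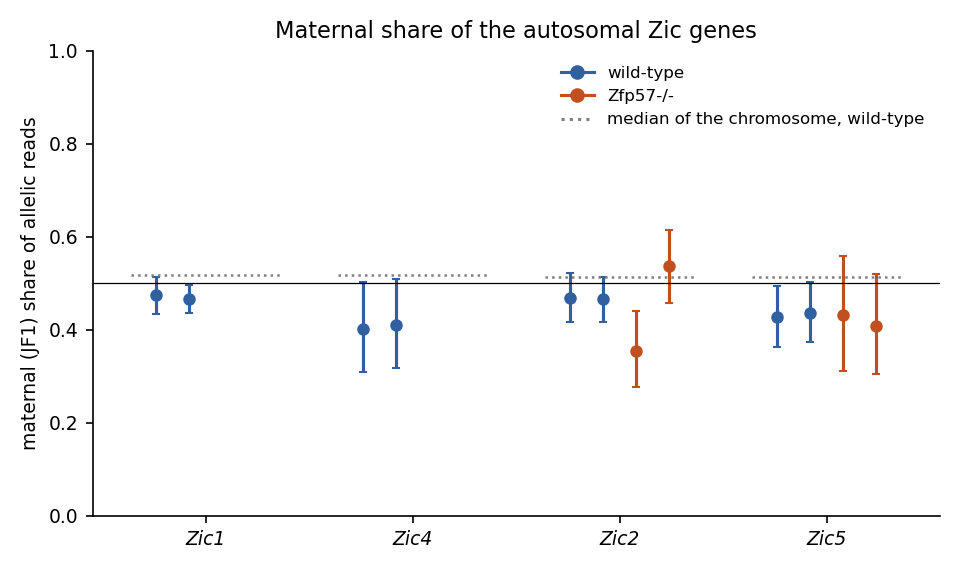
Maternal (JF1) share of allelic reads for each autosomal Zic gene and library with at least 10 allelic reads, with Wilson 95% intervals, wild-type in blue and *Zfp57*-/- in orange; the dotted lines are the wild-type medians of the chromosome. The wild-type shares lay between 0.402 and 0.474, and the *Zfp57*-/- values of *Zic2* at 0.354 and 0.536.

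The genes around the 2 pairs were examined next. Within 1000 kb of either pair, 24 other genes were tested, of which 11 were lower and 2 higher in *Zfp57*-/- cells, with a median log2 fold change of -0.82 against -0.01 over all genes tested, where 14.6% were lower and 13% higher. The counts were 7 without *Zfp57*-/- replicate 1 (0 higher and 7 lower) and 8 without replicate 2 (1 higher and 7 lower). Over all genes, 2756 and 2900 passed without these replicates and 10004 without wild-type replicate 2, against 5522 with all 4 libraries.

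Near *Zic1*-*Zic4*, 4 of 7 neighbours were lower and 0 higher, and these 4 were predicted genes with few counts. Gm37040 (7, 4, 0 and 0 counts in wild-type replicates 1 and 2 and *Zfp57*-/- replicates 1 and 2) and Gm37457 (11, 3, 0 and 0 counts) lie 21.0 and 30.2 kb from the *Zic1* end of the pair. They were barely past the threshold (edgeR adjusted p = 0.0498 and 0.0463), and neither passed by DESeq2. Gm29478 begins 15.1 kb beyond the *Zic4* end and had 42, 23, 0 and 0 counts, at least 11.8-fold lower (adjusted p = 0.00228). Gm37477, which lies within the span of *Zic4* on the opposite strand, had 16, 18, 1 and 1 counts (adjusted p = 0.0105) and lost its call without either *Zfp57*-/- replicate. *Plscr1*, which encodes a phospholipid scramblase and is the next gene on the *Zic4* side at 860 kb, had 89, 266, 270 and 282 counts and did not pass (log2 fold change 0.65, adjusted p = 0.181).

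Near *Zic2*-*Zic5*, 7 of 17 neighbours were lower and 2 higher. The transcript 2610035F20Rik lies between the 2 genes on the minus strand. Its annotated start is 236 bases from that of *Zic2*, and the 2 are transcribed away from each other. It had 123, 109, 13 and 6 counts and fell by 3.42 on the log2 scale (standard error 0.48, adjusted p = 0.000472). Both genes with the symbol Gm5089 lie on the *Zic5* side, 5.68 and 50.05 kb away. The nearer had 19, 4, 0 and 0 counts (adjusted p = 0.0275, not passed without wild-type replicate 1), and the farther 127, 94, 1 and 0 counts, at least 39.3-fold lower (adjusted p = 9.42e-05).

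The next protein-coding genes also differed between genotypes. *Clybl*, which encodes a mitochondrial lyase, had 221, 221, 71 and 73 counts and fell by 1.65 on the log2 scale (adjusted p = 0.00138). *Pcca*, a subunit of propionyl-CoA carboxylase, had 235, 251, 118 and 124 counts and fell by 1.05 (adjusted p = 0.00902), but did not pass without either *Zfp57*-/- replicate. Gm49260, with at most 12 counts in a library, did not pass (adjusted p = 0.508). Gm37477, 2610035F20Rik and *Clybl* were picked out after their values were seen, the other neighbours for their position.

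**Figure D4:**
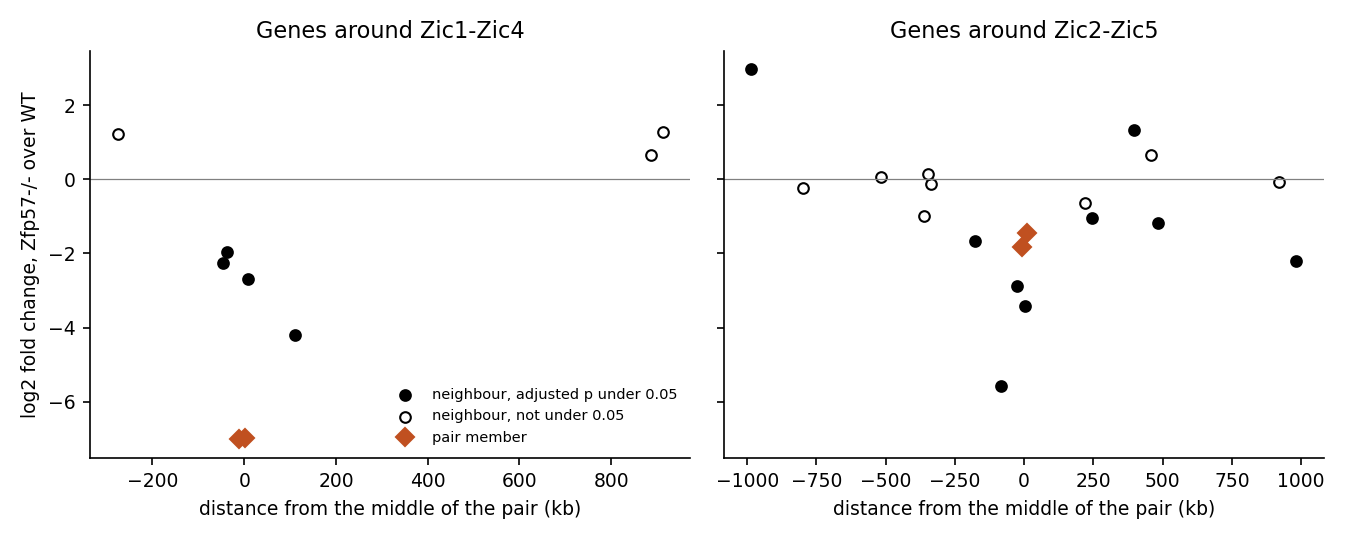
Log2 fold change of *Zfp57*-/- over wild-type cells for genes within 1000 kb of each pair, against the distance in kilobases from the middle of the pair; filled points passed an edgeR adjusted p of 0.05, open points did not, and diamonds are the pair members. The 2 *Zic1*-*Zic4* diamonds lie at -7.01 and -6.98, below all neighbours, while some neighbours of *Zic2*-*Zic5* lie below its diamonds.

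Other genes were compared by lists, of the dorsal neural tube and of other regions and cell types. Read counts are given in the order wild-type 1 and 2, *Zfp57*-/- 1 and 2. The numbers of genes lower and higher can be read against 14.6% and 13% among all genes. Of 16 dorsal midline genes, which encode the WNT, BMP and R-spondin signals and regulators of the roof plate, 11 were lower and 1 higher in *Zfp57*-/- cells, with a median log2 fold change of -2.87. *Wnt1* had 341, 375, 0 and 1 counts, at least 124-fold lower (adjusted p = 3.87e-06). *Rspo2*, which encodes an R-spondin that strengthens WNT signalling, had 464, 322, 8 and 4 counts and fell by 5.71 on the log2 scale (adjusted p = 1.64e-05). *Rspo1*, another R-spondin gene, had 254, 301, 22 and 23 counts (log2 fold change -3.56, adjusted p = 1.73e-05). The exception was *Bmp4*, a BMP ligand gene, which had 117, 119, 426 and 561 counts and rose (log2 fold change 1.98, edgeR adjusted p = 0.000234).

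Of 16 midbrain, cerebellar and dorsal cord genes, 14 were lower and 0 higher, with a median log2 fold change of -3.52. *Atoh1*, which specifies cerebellar granule cell precursors and dorsal interneurons, had 270, 423, 0 and 2 counts, at least 117-fold lower (adjusted p = 5.74e-06). *Lhx9*, a LIM homeobox gene of dorsal neurons, had 720, 655, 13 and 10 counts and fell by 5.74 (adjusted p = 3.58e-06). *Pax3*, a paired box gene of the dorsal neural tube, had 593, 884, 55 and 54 counts and fell by 3.74 (adjusted p = 5.06e-06). *Zic1* and *Zic4* had log2 fold changes below the medians of both lists, and *Zic2* and *Zic5* above them.

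Of 20 early neural plate genes, 18 could be tested, of which 12 were lower and 1 higher, with a median log2 fold change of -1.47. This list shares *Sox1*, *Sox2*, *Pax6*, *Hes5* and *Nes* with the neural progenitor markers. *Hes5*, a Notch target of neural progenitors, had 317, 459, 12 and 10 counts and fell by 4.94 (adjusted p = 4.58e-06). *Ncam1*, a neural cell adhesion molecule, and *Sox11*, a SOX factor of immature neurons, had log2 fold changes of -2.58 and -2.46 (adjusted p = 1.88e-05 and 2.76e-05). *Hesx1*, an anterior gene, was at 0 in both wild-type libraries and had 39 counts in each *Zfp57*-/- library, at least 12.4-fold higher (edgeR adjusted p = 0.000961).

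The epiblast genes went in the other direction, with 12 of 14 higher and 1 lower and a median log2 fold change of 3.16. *Tdgf1*, a Nodal co-receptor, had 0, 2, 2301 and 2301 counts, at least 733-fold higher (adjusted p = 1.69e-06). It was also among the pluripotent cell markers. *Fgf4*, a growth factor of pluripotent cells, had 6, 6, 636 and 641 counts (log2 fold change 6.28, adjusted p = 1.73e-06). *Utf1*, a chromatin-associated factor of pluripotent cells, had 0, 1, 539 and 475 counts, at least 162-fold higher (adjusted p = 2.42e-06). The lower gene was *Sall2*, a zinc finger factor (844, 1338, 476 and 543 counts, edgeR adjusted p = 0.00251), which did not pass without *Zfp57*-/- replicate 1.

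Of 15 neural crest and meninges genes, 4 were lower and 1 higher, with a median log2 fold change of -0.38. *Tfap2b* and *Tfap2a*, AP-2 factors of the neural plate border, had 572, 1118, 21 and 42 counts and 55, 75, 10 and 3 counts, with log2 fold changes of -4.67 and -3.00 (adjusted p = 1.32e-05 and 0.00297). *Twist1* (adjusted p = 0.0158) was also lower and *Ets1* (adjusted p = 0.0354) higher, and neither passed without either *Zfp57*-/- replicate, which left 3 genes of this list past the threshold, all lower.

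Of the 6 GLI and GLIS genes, whose products carry zinc fingers related to those of ZIC proteins, 2 were lower and 0 higher, with a median log2 fold change of -0.30, and 4 passed without wild-type replicate 1, 2 of them higher. *Gli3*, the main transcriptional repressor of the Hedgehog pathway, had 1963, 2135, 834 and 802 counts and fell by 1.38 (adjusted p = 0.000727). *Glis3*, a transcription factor of kidney and pancreas, had 501, 538, 113 and 99 counts and fell by 2.33 (adjusted p = 7.02e-05). The lists were chosen with the fall of neural genes in these data already known, so that their directions are no independent evidence.

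**Figure D5:**
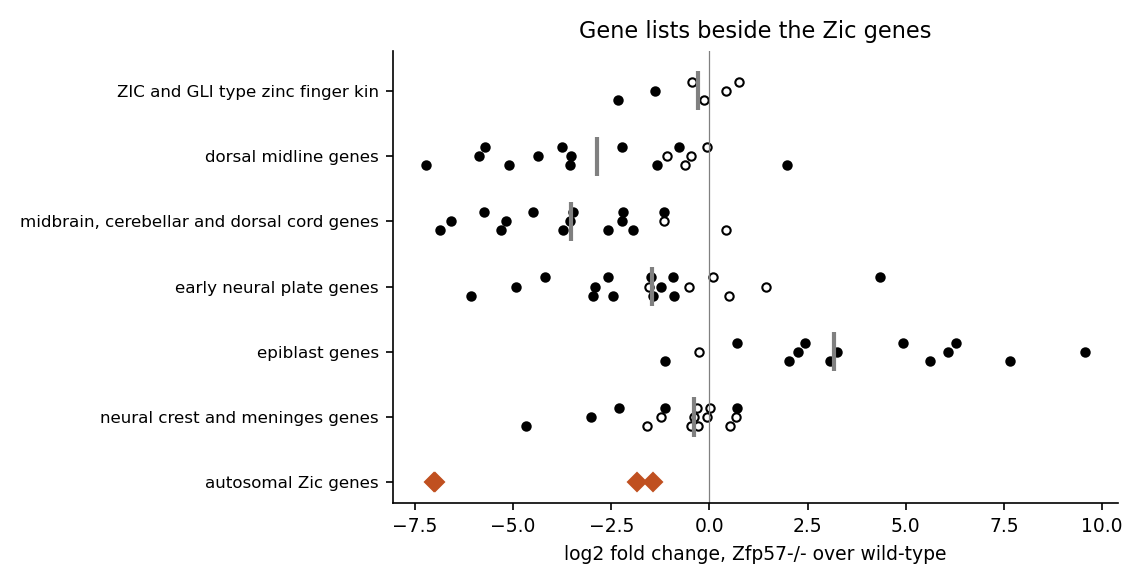
Log2 fold change of *Zfp57*-/- over wild-type cells for each tested gene of the 6 lists, filled where the edgeR adjusted p was under 0.05, with a grey bar at the list median and diamonds for the 4 autosomal Zic genes. The median is -2.87 for the dorsal midline list, -3.52 for the midbrain, cerebellar and dorsal cord list and 3.16 for the epiblast list. The diamonds of *Zic1* and *Zic4* overlie each other near -7.0.

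The genes with the most similar profile over the 4 libraries were sought by the Euclidean distance between mean-centred log2 CPM values. With so few libraries, the likeness describes the size of the difference and little else. *Zic4* was the closest of all tested genes to *Zic1* (distance 0.51), followed by *Kcnk9*, a potassium channel gene (0.53), and *Barhl1*, a homeobox gene of cerebellar and dorsal neurons (0.63). *Slc17a6*, the vesicular glutamate transporter 2 gene, was the closest to *Zic4* (0.45), followed by *Zic1* and by *Dcc*, the netrin receptor gene (0.56). *Zic4*, *Kcnk9*, *Barhl1* and *Slc17a6* had at most 1 count in each *Zfp57*-/- library. Their distances and ranks therefore depend on the prior count of 2.

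The closest genes to *Zic2* were *Ttbk2*, *Zfp113* and *Map1a* (distances 0.06, 0.07 and 0.07), which encode a tubulin kinase, a zinc finger protein and a microtubule-associated protein. Those to *Zic5* were *Adam22*, *Dlg4* and *Grb10* (0.01, 0.05 and 0.07), which encode a membrane protein of synapses, a synaptic scaffold and a growth factor receptor adaptor. The distance between *Zic2* and *Zic5* was 0.45, and *Zic5* was 559th by distance from *Zic2* and *Zic2* 404th from *Zic5*. These ranks depend on how many genes have a difference of that size.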

How the data were processed

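RNA-seq of day 12 cells was analysed from the tables deposited by the authors, for 2 wild-type and 2 *Zfp57*-/- cultures. The authors trimmed reads (Trimmomatic 0.36), aligned them to GRCm38 (STAR 2.5.4a) and deposited raw fragment counts per gene of GENCODE vM20, counted by strand (featureCounts, Subread 1.6.0), for all reads and for reads assigned to the JF1 or B6 allele.

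Genes with more than 8 counts in all were compared with edgeR 4.0.16 (R 4.3.3; TMM, quasi-likelihood test, prior count 2, Benjamini-Hochberg threshold 0.05). CPM uses TMM-scaled library sizes. Standard errors were derived from the quasi-likelihood test, as the absolute log2 value at edgeR's default prior count over the square root of its F statistic. Allele columns of autosomal genes with at least 10 allelic counts in both wild-type libraries were fitted with library terms and, for each genotype, an allele term. Wilson intervals and the limit of 3 counts cover counting error only. The fits were also run on simulated counts with the same spread in every library. This does not show how they behave where the spread differs between genotypes. Alternatives were DESeq2 1.42.0, other scalings, filters, prior counts and minimums, an exact test on pooled reads, a replicate block and leaving out each library. RefSeq windows supplied promoter sequence, and GENCODE vM21 supplied coding lengths.

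The Zic genes and all lists were chosen with earlier results of these data known. Named genes were, per list, up to 3 called in each direction with the smallest adjusted p, the 2 nearest tested genes on each side of a pair, and the 3 nearest profiles per Zic gene. One planned gene is not reported here. The labels number the cultures as replicates and the authors describe the samples as biological duplicates. The edgeR p-values rest on the spread between them.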

Additional observations from a re-analysis of the deposited data

How the results depend on the processing

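All 4 autosomal Zic genes were lower in *Zfp57*-/- cells under each alternative run. Scaled by *Actb*, the log2 fold change was -7.59 for *Zic1*, -7.54 for *Zic4*, -2.15 for *Zic2* and -2.57 for *Zic5*, following the shift of the median of all genes. A prior count of 0.5 or 5 moved *Zic4* to -8.30 or -5.86, as its *Zfp57*-/- counts are near 0. Leaving out a library gave between -7.29 and -6.76 for *Zic1*, -7.31 and -6.70 for *Zic4*, -1.54 and -1.36 for *Zic2* and -1.97 and -1.70 for *Zic5*. Pooling reads for an exact test brought the wild-type allele ratios of *Zic1* (-0.18), *Zic4* (-0.55) and *Zic5* (-0.40) past the threshold. Per coding kilobase, the wild-type levels were 191, 32.5, 73.6 and 36.3 CPM for *Zic1*, *Zic4*, *Zic2* and *Zic5*, an alternative added after the data were seen, as were those of the neighbours. The RefSeq coding length was not run.

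Leaving out a library gave between 2756 and 10004 genes past the threshold, between 7 and 16 neighbours, between 2 and 4 GLI and GLIS genes and between 3 and 7 neural crest and meninges genes. A lone library was assumed to vary like the others. The wild-type replicates differed more from each other than the *Zfp57*-/- replicates did (chi-square per degree of freedom 43.0 against 8.32). The cause of these shifts was not tested. The counts of the other lists stayed within 1.5 times of the reported ones under each alternative run. With the replicate number as a block (replicate block), 6984 genes and 14 neighbours passed, and none of the allele ratios or contrasts did. Over 11736 genes, libraries of the same number deviated together with a correlation of 0.15, and the labels name no pairing. Allelic depth limits the *Zfp57*-/- comparison to 278 reads of *Zic2* and 134 of *Zic5*.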
